A study of Gallus gallus with 15 samples.

Results

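The genes described here encode membrane transporters of the ATP-binding cassette (ABC) families A to G and carriers of organic ions of the solute carrier families SLCO, SLC10A and SLC22A. A gene was a member if an array feature carried its symbol alone and the symbol began with ABC, a letter from A to G and a number, or with SLCO, SLC10A or SLC22A. ABCB11 and SLC10A1 were outside the rule. The 59 features that met it gave 55 genes of the 11528 named genes in the table. Of the 55, 54 had 1 feature each, and ABCA9 had 5, of which the feature with the highest mean over all arrays stood for the gene. All 55 members had a gene of the same symbol in the RefSeq gene table of chicken assembly GRCg7b. No low-value filter was applied, so all 55 members were tested.

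Liver RNA came from 15 male chickens at 13 weeks of age, with 1 Affymetrix array per bird and 3 birds for each of 5 breeds. The 4 native breeds of Korea were Yeonsan Ogye, written Og, Hyunin Black, written Bl, Hwangbong, written Hw, and Hoengseong Yakdak, written Ya, and the control breed was White Leghorn, written WL. All chicks hatched from eggs of local farms, were raised on 1 farm and ate freely, and the labels name no treatment beyond standard care. They call the 3 birds of a breed biological replicates. The question was how liver expression depends on breed, and how each native breed differs from the control. Birds are named by breed code and replicate number, as in Ya 1.

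Liver cells take organic ions from the blood through SLCO carriers, which exchange bile acids, bilirubin, steroid conjugates and thyroid hormones without sodium, and through SLC22A carriers, which move organic cations, anions and carnitine. ABC proteins use ATP to push substrates out. In mammalian liver ABCB1, ABCC2 and ABCG2 empty drugs and conjugates into bile, ABCG5 and ABCG8 pair to export sterols into bile, ABCA1 loads lipid onto apolipoprotein A1, and ABCD proteins carry fatty acyl-CoA into peroxisomes. ABCE and ABCF proteins share the ATPase domains but act on ribosomes and in translation.

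Values are log2 levels made by RMA, so a difference of 1 is a doubling, and levels of different genes were not set against each other because their probes differ. Array medians lay between 6.12 and 6.2, and correlations between arrays between 0.977 and 0.991. The hepatocyte marker ALB had breed means between 13.78 and 13.82, and the mean of 12 hepatocyte markers lay between 12.15 and 12.29 in the 15 birds. The lowest of them, CPS1, had breed means between 4.63 and 5.31. These are not shown to be above background, so CPS1 is not shown to mark hepatocytes here, though it is counted in that mean. The mean of 5 markers of kidney, gut and pancreas (UMOD, FABP2, FABP6, CDX2 and CELA2A) lay between 3.97 and 4.32. Array background was not measured. Of the members, 10 were left out by a filter that removes 1 in 3 features, those with the lowest means, namely ABCA4, ABCA13, ABCB5, ABCG8, SLC10A2, SLC22A3, SLC22A7, SLC22A13, SLCO1C1 and SLCO4C1, and their levels are not shown to be above background.

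Few transporter genes passed a test of difference between breeds, and the shares of all features that passed were also small. SLC22A15 differed among the 5 breeds, ABCG5 was lower in Hoengseong Yakdak than in Hwangbong, and ABCA12 was lower in Hwangbong than in White Leghorn. The share of all features passing in at least 1 of these tests was not counted. With p-values adjusted over all 18308 features and a threshold of 0.05, the F test among breeds called 1 of 55 members, SLC22A15, where it called 1.6% of all features. At an unadjusted p under 0.05 it called 11 members, or 20%, against 16.1% of features. These were ABCA8, ABCA9, ABCA12, ABCB1, ABCC9, ABCC13, ABCD3, ABCG1, ABCG5, SLC22A15 and SLCO1B1, so that in the SLC10A family and among ABCE and ABCF genes there were 0. The median range of the 5 breed means was 0.32 over members and 0.3 over all features, and the median spread of birds within a breed was an SD of 0.22 over members and 0.19 over all features. The range exceeded 1 in 9 members (16.4%) and in 3.59% of features, a description that was not tested. These 9 were SLC22A15, SLCO1B1, ABCA8, ABCA12, ABCB1, ABCB1LA, ABCC9, ABCG5 and ABCG8.

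**Figure D1:**
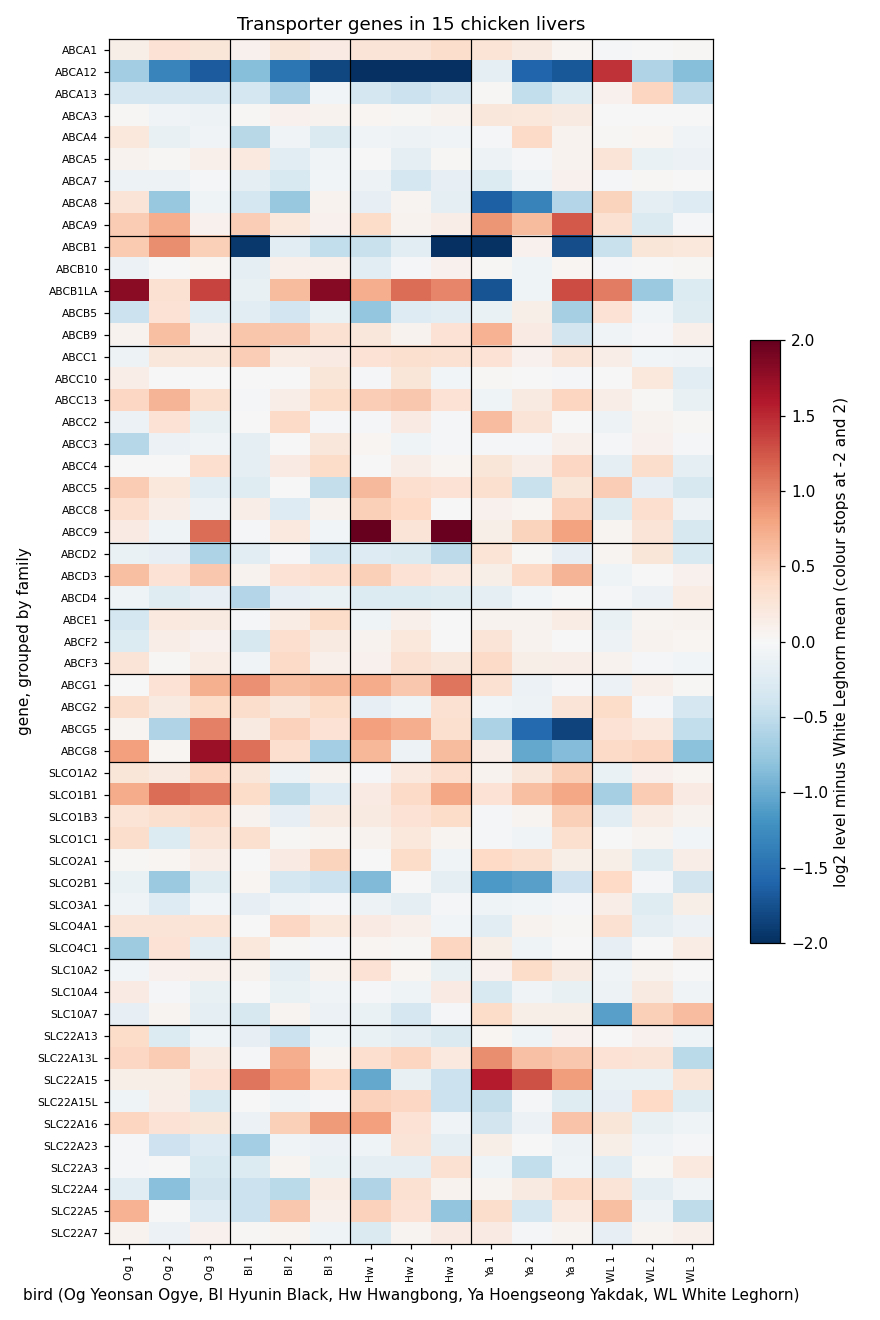
Colour gives each bird's log2 level minus the mean of the 3 White Leghorn birds for each of 55 genes (rows, by family) in 15 birds (columns, native breeds left and White Leghorn right). ABCA12 is blue in all native birds, most in Hwangbong, with WL 1 raising the White Leghorn mean. SLC22A15 is red in Hoengseong Yakdak and Hyunin Black birds and faintly so in Yeonsan Ogye birds. ABCG5 is blue in all 3 Hoengseong Yakdak birds, and also in Og 2 and WL 3.

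Set against White Leghorn, 33 of 55 members lay above 0 in Yeonsan Ogye, 31 in Hyunin Black, 33 in Hwangbong and 37 in Hoengseong Yakdak, against 48%, 49.8%, 47.6% and 49% of all features. The 4 comparisons share the White Leghorn birds. The median differences of the members were 0.067, 0.033, 0.049 and 0.054, and those of all features were -0.008, -0.001, -0.012 and -0.005. White Leghorn had the lowest of the 5 breed means in 20 members (36.4%, against 20% of features), and Hoengseong Yakdak had the highest in 17 (30.9%, against 21.7% of features). The count of members that passed was 0 in Yeonsan Ogye (0.191% of features), 0 in Hyunin Black (0.164%), 1 in Hwangbong (0.579%) and 1 in Hoengseong Yakdak (0.552%). At an unadjusted p under 0.05 the counts in the same order were 7, 6, 9 and 8 members, and the shares of features were 9.14%, 11.7%, 12.9% and 12.8%. All 3 birds lay above the White Leghorn birds in 7 members in Yeonsan Ogye (6.12% of features), 6 in Hyunin Black (8.37%), 10 in Hwangbong (9.3%) and 8 in Hoengseong Yakdak (9.02%). They lay below them in 3 members in Yeonsan Ogye (6.84% of features), 4 in Hyunin Black (7.95%), 5 in Hwangbong (9.42%) and 3 in Hoengseong Yakdak (8.68%). In the mean of the 4 native breeds 0 members passed (0.432% of features), and 10 had an unadjusted p under 0.05 (12.2% of features). ABCA1 was the 1 member for which all 12 native birds lay above all 3 White Leghorn birds, as did 0.699% of features.

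Among the 6 pairs of native breeds, 2 members passed in at least 1 pair, where 1.92% of features did. SLC22A15 and ABCG5 passed between Hoengseong Yakdak and Hwangbong (1.46% of features), and SLC22A15 passed between Hwangbong and Hyunin Black (0.371%). In the other 4 pairs 0 members passed, where 0.317% of features did for Hwangbong and for Hoengseong Yakdak against Yeonsan Ogye, 0.295% for Hoengseong Yakdak against Hyunin Black and 0.0492% for Hyunin Black against Yeonsan Ogye. An unadjusted p under 0.05 was found in 5 members for Hwangbong against Yeonsan Ogye (10.7% of features), 8 for Hoengseong Yakdak against Yeonsan Ogye (10.6%), 7 for Hoengseong Yakdak against Hyunin Black (11.1%) and 3 for Hyunin Black against Yeonsan Ogye (8.05%). For Hoengseong Yakdak against Hwangbong there were 8 (13.2% of features), for Hwangbong against Hyunin Black 4 (9.03%), and in at least 1 pair 16 (32.1%).

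The SLC22A family had 10 measured members, of which 1 passed. SLC22A15 is a carrier that in human cells moves zwitterions such as ergothioneine. It read 6.46, 6.46 and 6.62 in Yeonsan Ogye, 7.41, 7.16 and 6.74 in Hyunin Black, 5.32, 6.19 and 5.91 in Hwangbong and 7.90, 7.61 and 7.18 in Hoengseong Yakdak, against 6.20, 6.20 and 6.61 in White Leghorn. The Hoengseong Yakdak birds lay above all birds of Yeonsan Ogye, Hwangbong and White Leghorn and overlapped with Hyunin Black. The Hwangbong birds lay below all other birds, though Hw 2 only just below WL 1 and WL 2. The F test gave F = 17.1 (adjusted p = 0.00869).

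Against Hwangbong, SLC22A15 was higher in Hoengseong Yakdak by 1.76 ± 0.23 (difference of log2 means ± SE of the model, adjusted p = 0.00236), a 3.38-fold difference. Against White Leghorn it rose by 1.23 ± 0.23 in Hoengseong Yakdak (adjusted p = 0.0338), 2.34-fold. In Hwangbong it fell by 1.29 ± 0.23 against Hyunin Black (adjusted p = 0.0286). The means ran in the order Hoengseong Yakdak 7.56 ± 0.36 (SD, n = 3), Hyunin Black 7.10 ± 0.34, Yeonsan Ogye 6.51 ± 0.09, White Leghorn 6.34 ± 0.23 and Hwangbong 5.81 ± 0.45. Of the 4 neighbouring steps in that order none passed; the steps were 0.46 between Hoengseong Yakdak and Hyunin Black, 0.59 between Hyunin Black and Yeonsan Ogye, 0.18 between Yeonsan Ogye and White Leghorn and, for Hwangbong against White Leghorn, -0.53. The F test and the difference between Hoengseong Yakdak and Hwangbong passed in all 23 alternative fits. The rise against White Leghorn was lost without WL 1, WL 2, Ya 1 or Ya 2 (adjusted p = 0.105, 0.0956, 0.101 and 0.121), and the fall against Hyunin Black without Bl 1, Bl 2, Hw 1, Hw 3 or Ya 2 (adjusted p = 0.102, 0.11, 0.0982, 0.0727 and 0.0505).

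**Figure D2:**
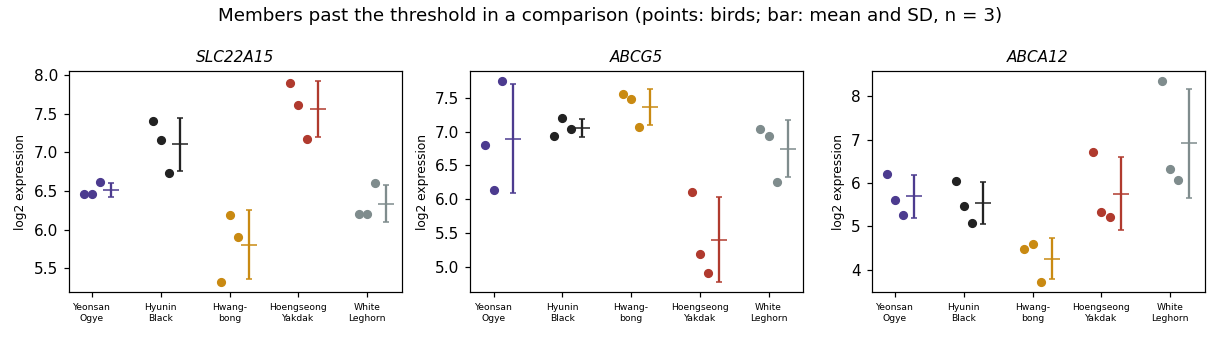
Log2 expression of SLC22A15, ABCG5 and ABCA12 by breed, with 3 birds as points and mean and SD as a bar beside them. SLC22A15 is highest in Hoengseong Yakdak and lowest in Hwangbong, ABCG5 is lowest in Hoengseong Yakdak at 6.11, 5.19 and 4.90, and ABCA12 is lowest in Hwangbong, with WL 1 above the other White Leghorn birds.

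In whole liver, fewer cells of a type and less RNA per cell cannot be told apart, so markers of other cell types are given beside these differences. The mean of 8 lymphocyte markers ranged over 6.18 to 6.64 in Hoengseong Yakdak birds and 6.68 to 7.03 in Hwangbong birds. Of these, 7 were lower in Hoengseong Yakdak, 5 of them at an unadjusted p under 0.05, and 0 passed the threshold. Among all 18308 features, 8690 were lower, and 13.2% had such a p in either direction. For 4 macrophage markers the ranges were 10.44 to 10.55 and 10.74 to 10.85, with 4 of 4 lower, 0 at that p and 0 past the threshold. For 8 endothelial markers they were 7.87 to 7.99 and 7.92 to 8.09, with 5 lower, 2 at that p and 0 past the threshold. The 6 bile duct markers averaged 5.91 to 6.58 in Hoengseong Yakdak birds and 5.93 to 6.27 in Hwangbong birds. SPP1 of that list, an osteopontin gene that bile duct cells express, rose by 1.01 ± 0.19 in Hoengseong Yakdak (adjusted p = 0.0149), and 4 of the other 5 also lay above 0. SPP1 also passed between Hwangbong and Hyunin Black, in the direction of SLC22A15, at 6.77 in Hwangbong against 7.74 in Hyunin Black, while the other 5 bile duct markers lay above 0 in Hwangbong and did not pass. Against White Leghorn, 5 red cell markers averaged 7.1 to 7.17 in Hoengseong Yakdak birds and 6.76 to 6.86 in White Leghorn birds. Of these 5, 2 were higher at an unadjusted p under 0.05 (12.8% of features in either direction), and 0 passed. The globin genes HBAD and HBA1 were at 10.03 and 9.81 in Hoengseong Yakdak against 8.95 and 9.23 in White Leghorn. SLC4A1, EPB42 and TAL1 had breed means between 4.69 and 5.99. In this comparison 1 endothelial marker was higher at that p, and 1 bile duct and 1 kidney or gut marker were lower. The part of these cells in the differences of SLC22A15 and ABCG5 was not tested.

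Of the other 9 SLC22A members, none passed in any comparison. SLC22A13L, a copy next to the nicotinate and urate exchanger SLC22A13, read 7.13, 7.22 and 6.89 in Yeonsan Ogye, 6.70, 7.45 and 6.77 in Hyunin Black, 7.06, 7.15 and 6.91 in Hwangbong and 7.64, 7.31 and 7.25 in Hoengseong Yakdak, against 7.01, 6.97 and 6.17 in White Leghorn. The 3 Hoengseong Yakdak birds lay above White Leghorn without overlap, and the difference was 0.68 ± 0.23 (adjusted p = 0.214), or 0.41 without WL 3 (adjusted p = 0.459). SLC22A4, the ergothioneine carrier of mammals, averaged 6.66 ± 0.33 in Yeonsan Ogye, the lowest breed mean, and 7.34 ± 0.16 in Hoengseong Yakdak, the highest. SLC22A5, which brings carnitine into cells for fatty acid oxidation, read 8.51, 7.81 and 7.56 in Yeonsan Ogye, 7.38, 8.35 and 7.92 in Hyunin Black, 8.27, 8.11 and 7.03 in Hwangbong and 8.16, 7.46 and 8.01 in Hoengseong Yakdak, against 8.42, 7.71 and 7.31 in White Leghorn. Its breed means spanned only 0.16, less than the SD within any breed, which lay between 0.37 and 0.68.

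SLC22A23, a member without a settled substrate, read 8.84, 8.47 and 8.62 in Yeonsan Ogye, 8.20, 8.81 and 8.77 in Hyunin Black, 8.80, 9.13 and 8.70 in Hwangbong and 8.99, 8.88 and 8.78 in Hoengseong Yakdak, against 8.99, 8.81 and 8.84 in White Leghorn. Bl 1 was the lowest bird, and the breeds overlapped apart from Hyunin Black and White Leghorn. SLC22A16, a carnitine carrier in human testis, had breed means between 7.41 and 7.82, SLC22A15L between 5.09 and 5.49, and SLC22A13 between 4.13 and 4.37. SLC22A3, a cation carrier, and SLC22A7, an anion carrier of mammalian liver, had breed means between 3.7 and 3.92 and between 3.97 and 4.06.

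The SLCO family had 9 measured members and 0 passed in any comparison. SLCO1A2 and SLCO1B3 encode uptake carriers for bile acids and hormone conjugates, and their features were at 11.85 and 11.53 on average. SLCO1A2 read 11.94, 11.87 and 12.12 in Yeonsan Ogye, 11.93, 11.60 and 11.77 in Hyunin Black, 11.65, 11.89 and 12.04 in Hwangbong and 11.77, 11.93 and 12.18 in Hoengseong Yakdak, against 11.56, 11.79 and 11.74 in White Leghorn. Yeonsan Ogye lay above White Leghorn without overlap, and the 5 breed means spanned 0.28. SLCO1B3 read 11.64, 11.69 and 11.75 in Yeonsan Ogye, 11.44, 11.21 and 11.54 in Hyunin Black, 11.55, 11.65 and 11.74 in Hwangbong and 11.32, 11.42 and 11.84 in Hoengseong Yakdak, against 11.14, 11.52 and 11.44 in White Leghorn. Both Yeonsan Ogye and Hwangbong stood clear of White Leghorn, at 0.33 ± 0.14 (adjusted p = 0.507) for Yeonsan Ogye.

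SLCO1B1 lies between these genes and varied more. It read 6.21, 6.59 and 6.53 in Yeonsan Ogye, 5.84, 4.96 and 5.22 in Hyunin Black, 5.64, 5.86 and 6.24 in Hwangbong and 5.77, 6.08 and 6.24 in Hoengseong Yakdak, against 4.81, 5.98 and 5.63 in White Leghorn. All 3 Yeonsan Ogye birds were above all Hyunin Black and White Leghorn birds. The difference from White Leghorn was 0.97 ± 0.28 (adjusted p = 0.257), 1.96-fold, or 0.64 without WL 1 (adjusted p = 0.496), and for Hyunin Black against Yeonsan Ogye it was -1.10 ± 0.28 (adjusted p = 0.216). Neither passed.

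SLCO2B1, an uptake carrier for steroid sulfates, read 9.84, 9.23 and 9.72 in Yeonsan Ogye, 10, 9.62 and 9.54 in Hyunin Black, 9.09, 9.97 and 9.78 in Hwangbong and 8.82, 8.88 and 9.55 in Hoengseong Yakdak, against 10.37, 9.93 and 9.60 in White Leghorn. The Hoengseong Yakdak birds lay below the White Leghorn birds, with Ya 3 only just so, and the difference was -0.88 ± 0.27 (adjusted p = 0.173). The prostaglandin carrier SLCO2A1 had breed means between 8.05 and 8.33, and SLCO4A1, a thyroid hormone carrier, between 9.54 and 9.84. SLCO3A1 spanned 5.36 to 5.49. SLCO1C1, the thyroxine carrier of brain vessels, and SLCO4C1, a kidney carrier, lay at breed means of 3.09 to 3.22 and 2.49 to 2.87.

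**Figure D3:**
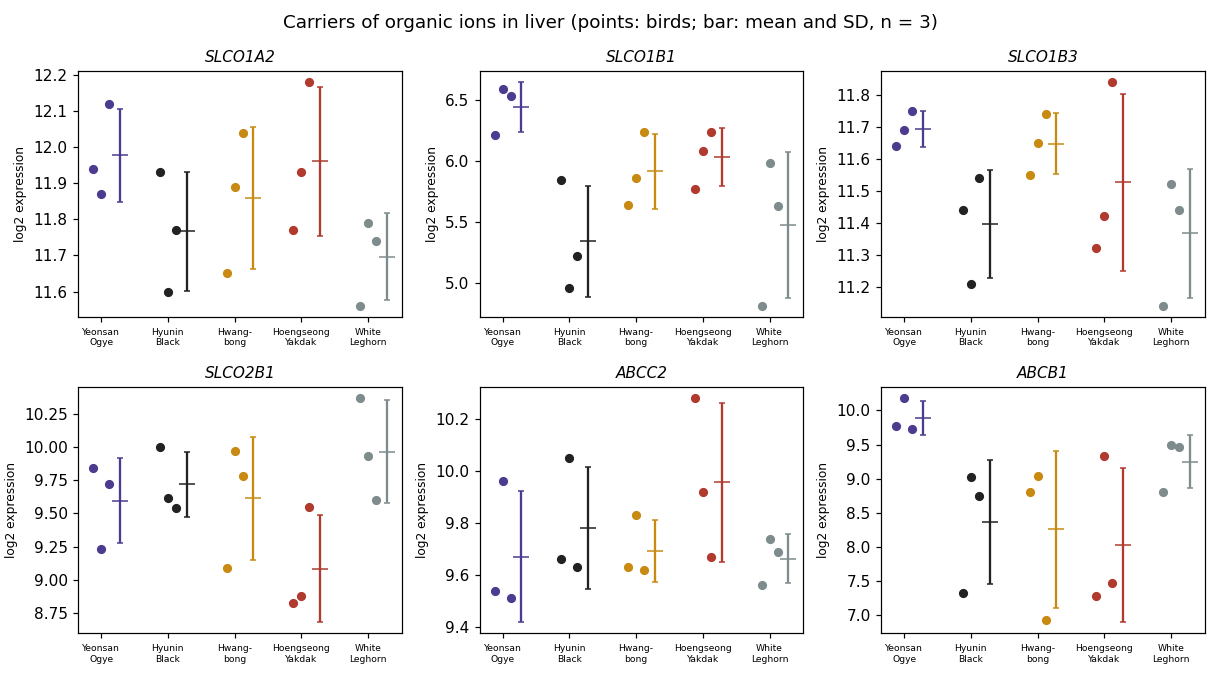
Log2 expression of 4 uptake carriers (SLCO1A2, SLCO1B1, SLCO1B3 and SLCO2B1) and 2 exporters (ABCC2 and ABCB1) by breed, with 3 birds as points and mean and SD as a bar. Yeonsan Ogye lies above White Leghorn in the 3 SLCO1 genes and holds the highest ABCB1 values, 9.77, 10.18 and 9.73, and axes differ between genes.

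SLCO1B1 moved together with its neighbours SLCO1A2 and SLCO1B3 from bird to bird. The members included 9 pairs of genes next to each other in the RefSeq order of protein-coding genes. Each was correlated over 15 birds with p-values from 100000 permutations, adjusted over the 9 pairs. This test was chosen after seeing the data. The permutations moved birds across breeds, so differences between breeds enter these p-values. Correlations within breeds were not tested, and genes that are not neighbours were not compared. SLCO1B1 followed SLCO1A2 with Pearson r = 0.82 (adjusted p = 0.00144) and Spearman rho = 0.85 (adjusted p = 0.0009). The pair gave r = 0.69 without the 2 birds farthest from the median of the gene named first, and r = 0.77 for deviations from breed means. SLCO1B3 and SLCO1B1 gave r = 0.81 (adjusted p = 0.00171) and rho = 0.79 (adjusted p = 0.00378), r = 0.60 without the 2 farthest birds and r = 0.73 within breeds. SLCO1C1, at the end of the cluster and at a low level, gave r = 0.36 with SLCO1B3 (adjusted p = 0.33; rho = 0.48, adjusted p = 0.129). These genes are similar copies, and whether their probes also bind each other's transcripts was not tested.

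Sterol exporters ABCG5 and ABCG8 were the other neighbours that correlated, with r = 0.71 (adjusted p = 0.0096), rho = 0.57 (adjusted p = 0.0899), r = 0.50 without the 2 farthest birds and r = 0.69 within breeds. The rank correlation missed the threshold of 0.05, and the levels of ABCG8 are not shown to be above background. For ABCA8 and ABCA9 the values were r = -0.54 (adjusted p = 0.113) and rho = -0.50 (adjusted p = 0.129), with r = 0.17 within breeds. The remaining 4 pairs had r between -0.02 and 0.32, with adjusted p of at least 0.38. They were ABCA9 with ABCA5, ABCB1LA with ABCB1, SLC22A13L with SLC22A13 and SLC22A4 with SLC22A5.

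**Figure D4:**
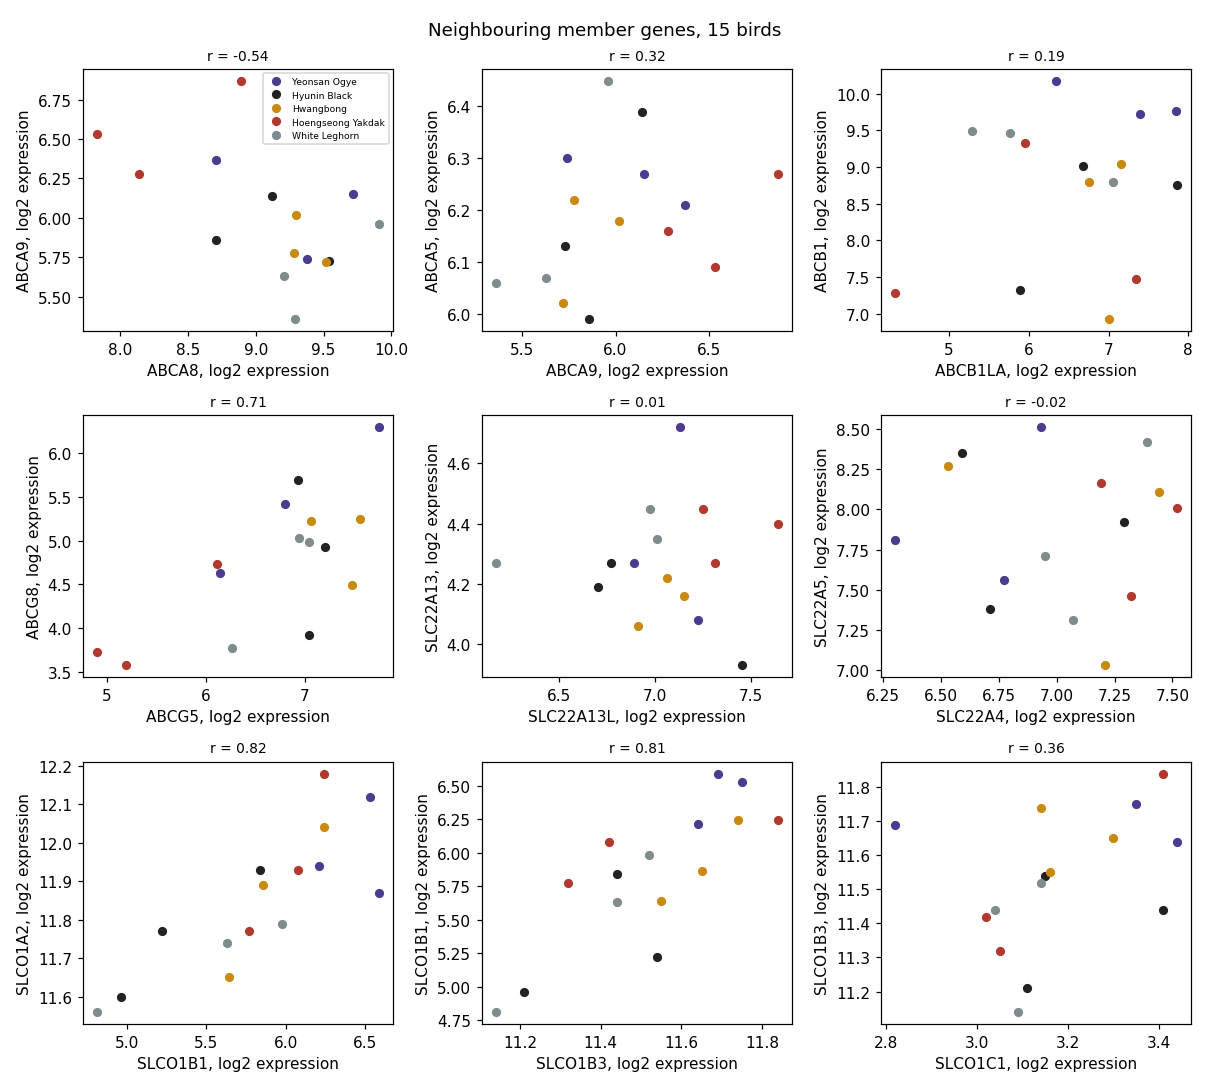
Log2 expression of 1 gene against its neighbour in RefSeq gene order for 9 pairs, with 1 point per bird and colour by breed. Points rise together for SLCO1B1 with SLCO1A2 (r = 0.82), SLCO1B3 with SLCO1B1 (r = 0.81) and ABCG5 with ABCG8 (r = 0.71), and scatter for ABCB1LA with ABCB1 (r = 0.19).

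The SLC10A family, named for sodium-dependent bile acid uptake, had 3 measured members and 0 passed. SLC10A7, a Golgi protein linked to calcium handling and bone growth, read 7.95, 8.18 and 7.92 in Yeonsan Ogye, 7.80, 8.18 and 8.01 in Hyunin Black, 7.98, 7.79 and 8.09 in Hwangbong and 8.48, 8.24 and 8.24 in Hoengseong Yakdak, against 7.03, 8.60 and 8.73 in White Leghorn. WL 1 was the lowest and WL 2 and WL 3 were the highest of the 15 birds. The difference of Hoengseong Yakdak from White Leghorn was 0.20 with WL 1 and -0.35 without it (adjusted p = 0.395).

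SLC10A4, a vesicle protein of neurons, read 6.27, 6.06 and 5.96 in Yeonsan Ogye, 6.10, 5.98 and 6.03 in Hyunin Black, 6.08, 6.02 and 6.27 in Hwangbong and 5.80, 6.03 and 5.96 in Hoengseong Yakdak, against 6.01, 6.28 and 6.03 in White Leghorn. SLC10A2, the bile acid carrier of the ileum, read 2.00, 2.14 and 2.15 in Yeonsan Ogye, 2.12, 1.88 and 2.12 in Hyunin Black, 2.34, 2.09 and 1.91 in Hwangbong and 2.14, 2.42 and 2.24 in Hoengseong Yakdak, against 1.98, 2.13 and 2.05 in White Leghorn. Breeds overlapped in both, apart from Hoengseong Yakdak, whose SLC10A2 values lay just above those of Hyunin Black and White Leghorn at a level not shown to exceed background.

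The ABCG family had 4 measured members, and 1 of them, ABCG5, passed. ABCG5 read 6.80, 6.14 and 7.75 in Yeonsan Ogye, 6.93, 7.20 and 7.04 in Hyunin Black, 7.56, 7.48 and 7.06 in Hwangbong and 6.11, 5.19 and 4.90 in Hoengseong Yakdak, against 7.04, 6.94 and 6.26 in White Leghorn. All 3 Hoengseong Yakdak birds lay below the 12 other birds, though Ya 1 only just below Og 2. The difference from Hwangbong was -1.97 ± 0.36 (adjusted p = 0.0151), a ratio of 0.256. Against Hyunin Black it was -1.66 ± 0.36 (adjusted p = 0.0792), against Yeonsan Ogye -1.50 ± 0.36 (adjusted p = 0.115) and against White Leghorn -1.35 ± 0.36 (adjusted p = 0.122), and these 3 did not pass. The levels of Ya 2 and Ya 3 are not shown to be above background, so the sizes of these differences are uncertain. The F test over the breeds gave adjusted p = 0.0561. The call against Hwangbong was lost without Hw 1, Hw 2, Ya 2 or Ya 3 (adjusted p = 0.0583, 0.0617, 0.0736 and 0.0657), at differences between -1.91 and -1.72.

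ABCG8, the partner of ABCG5, read 5.42, 4.63 and 6.30 in Yeonsan Ogye, 5.69, 4.93 and 3.92 in Hyunin Black, 5.25, 4.49 and 5.22 in Hwangbong and 4.73, 3.57 and 3.73 in Hoengseong Yakdak, against 4.98, 5.03 and 3.77 in White Leghorn. Its lowest mean, 4.01 ± 0.63, was also that of Hoengseong Yakdak, but Og 2, Bl 3, Hw 2 and WL 3 lay below Ya 1, so the breeds overlapped. The largest difference, for Hoengseong Yakdak against Yeonsan Ogye, was -1.44 ± 0.50 (adjusted p = 0.303) and did not pass. Og 3 was the highest of the 15 birds in both genes of the pair.

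ABCG1, which moves cholesterol to high-density lipoprotein, read 4.89, 5.17 and 5.60 in Yeonsan Ogye, 5.79, 5.49 and 5.55 in Hyunin Black, 5.63, 5.42 and 5.96 in Hwangbong and 5.19, 4.76 and 4.86 in Hoengseong Yakdak, against 4.76, 4.98 and 4.91 in White Leghorn. Hyunin Black and Hwangbong birds lay above all Hoengseong Yakdak and White Leghorn birds. The Hoengseong Yakdak and White Leghorn levels are not shown to be above background, so the sizes of these differences are uncertain. None of these differences passed: Hwangbong against White Leghorn was 0.79 ± 0.18 (adjusted p = 0.0739), Hyunin Black against White Leghorn 0.73 ± 0.18 (adjusted p = 0.139) and Hoengseong Yakdak against Hwangbong -0.73 ± 0.18 (adjusted p = 0.0693). Macrophages also express ABCG1, and the mean of 4 macrophage markers was 10.74 to 10.85 in Hwangbong birds against 10.33 to 10.52 in White Leghorn birds. It was 10.21 to 10.97 in Hyunin Black, 10.44 to 10.55 in Hoengseong Yakdak and 10.18 to 10.47 in Yeonsan Ogye. The part of macrophages in the differences of ABCG1 was not tested.

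ABCG2 exports urate and drugs. It read 9.22, 9.05 and 9.24 in Yeonsan Ogye, 9.22, 9.09 and 9.24 in Hyunin Black, 8.71, 8.79 and 9.17 in Hwangbong and 8.81, 8.77 and 9.12 in Hoengseong Yakdak, against 9.24, 8.84 and 8.53 in White Leghorn. The White Leghorn birds spanned nearly the whole range of the native birds, and the breed means lay within 0.31.

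The ABCA family of lipid transporters had 9 measured members, of which 1 passed. ABCA12, which loads lipid into the lamellar granules of mammalian skin, read 6.22, 5.60 and 5.26 in Yeonsan Ogye, 6.06, 5.47 and 5.09 in Hyunin Black, 4.48, 4.59 and 3.71 in Hwangbong and 6.72, 5.33 and 5.22 in Hoengseong Yakdak, against 8.36, 6.32 and 6.07 in White Leghorn. The Hwangbong birds lay below all 12 other birds, and WL 1 lay far above the rest. It fell by 2.65 ± 0.54 in Hwangbong against White Leghorn (adjusted p = 0.0453), to 0.159 of the level. The Hwangbong values are not shown to be above background, so the size of the fall is uncertain. Without WL 1 the difference was -1.93 (adjusted p = 0.105), and the call was lost in 12 of 15 fits without 1 bird, at adjusted p between 0.0514 and 0.169; it held without WL 3, Og 1 or Ya 1. The other native breeds were at -1.22 (Yeonsan Ogye), -1.37 (Hyunin Black) and -1.16 (Hoengseong Yakdak) against White Leghorn and did not pass.

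In that same comparison of Hwangbong with White Leghorn, 8 endothelial markers averaged 7.92 to 8.09 in Hwangbong birds against 7.79 to 7.88 in White Leghorn birds, and 6 of 8 lay above 0. Lymphocyte markers averaged 6.68 to 7.03 against 6.53 to 6.67, with 6 of 8 above 0. The 4 macrophage markers averaged 10.74 to 10.85 against 10.33 to 10.52, with 4 above 0. The 5 red cell markers averaged 6.91 to 7.15 against 6.76 to 6.86, with 3 above 0 and 2 below. Of these, the globin genes HBAD and HBA1 were at 10.1 and 9.4 in Hwangbong against 8.95 and 9.23 in White Leghorn. The 6 bile duct markers averaged 5.93 to 6.27 against 6.11 to 6.44, with 3 above 0 and 3 below. Of the 3 below, 2 had an unadjusted p under 0.05, among them EPCAM at -0.8 ± 0.21 (adjusted p = 0.115). Of 12 hepatocyte markers, 8 lay below 0 and 4 above, and of 6 stellate cell and fibroblast markers, 5 lay above 0 and 1 below. At an unadjusted p under 0.05, 3 endothelial, 2 macrophage, 1 lymphocyte, 1 red cell and 1 stellate cell or fibroblast marker were higher. At that p, 3 hepatocyte, 1 lymphocyte and 1 kidney or gut marker were lower, beside the bile duct markers. Of all features, 12.9% had such a p in either direction, and 47.6% lay above 0. None of these markers passed the test, and their part in the fall of ABCA12 was not tested.

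ABCA8 and ABCA9 are neighbours, and their differences of Hoengseong Yakdak from White Leghorn had opposite signs. ABCA8 read 9.72, 8.71 and 9.38 in Yeonsan Ogye, 9.12, 8.71 and 9.54 in Hyunin Black, 9.30, 9.52 and 9.28 in Hwangbong and 7.83, 8.14 and 8.89 in Hoengseong Yakdak, against 9.91, 9.29 and 9.21 in White Leghorn. Ya 1 and Ya 2 were the lowest of the 15 birds, and the difference from White Leghorn was -1.19 ± 0.30 (adjusted p = 0.0973). ABCA9 read 6.15, 6.37 and 5.74 in Yeonsan Ogye, 6.14, 5.86 and 5.73 in Hyunin Black, 6.02, 5.72 and 5.78 in Hwangbong and 6.53, 6.28 and 6.87 in Hoengseong Yakdak, against 5.96, 5.36 and 5.63 in White Leghorn. Here the Hoengseong Yakdak birds lay above White Leghorn, by 0.91 ± 0.20 (adjusted p = 0.0603). Neither gene passed.

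The 5 features of ABCA9 all had their highest breed mean in Hoengseong Yakdak. Ordered by mean level, their differences from White Leghorn there were 0.91, 0.55, 0.96, 0.21 and 0.78, with adjusted p = 0.0603, 0.172, 0.0876, 0.543 and 0.162. The feature with the third highest mean, which does not stand for the gene, passed between Hoengseong Yakdak and Hwangbong. It read 4.67, 4.08 and 4.75 in Hwangbong and 5.32, 5.57 and 5.94 in Hoengseong Yakdak, and Hoengseong Yakdak was higher by 1.11 ± 0.23 (adjusted p = 0.0338). At a mean of 4.94 its levels are not shown to be above background, so the size of that difference is uncertain. For the feature that stands for the gene, that difference was 0.72 ± 0.20 (adjusted p = 0.1).

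**Figure D5:**
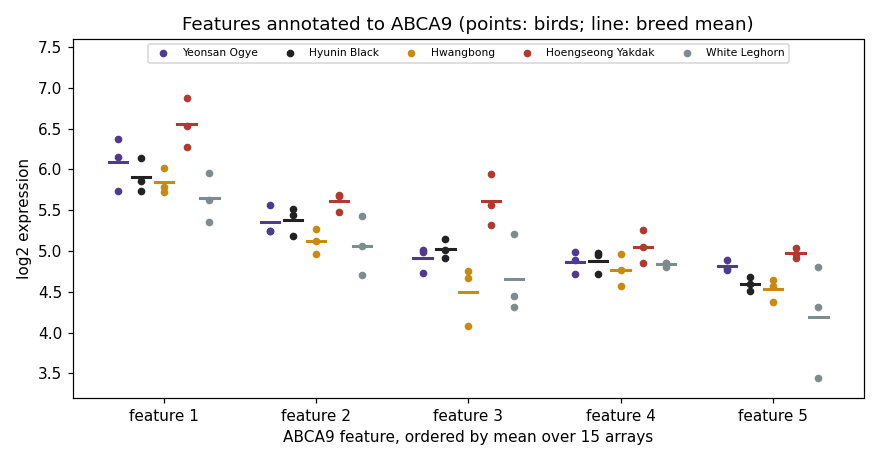
Log2 expression of the 5 features annotated to ABCA9, ordered by their mean over 15 arrays, with birds as points coloured by breed and breed means as lines. Hoengseong Yakdak has the highest mean in each feature, and its distance from White Leghorn ranges from 0.21 to 0.96.

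ABCA1 read 9.63, 9.80 and 9.75 in Yeonsan Ogye, 9.60, 9.75 and 9.68 in Hyunin Black, 9.76, 9.77 and 9.86 in Hwangbong and 9.78, 9.69 and 9.55 in Hoengseong Yakdak, against 9.49, 9.50 and 9.54 in White Leghorn. Every native bird was above every White Leghorn bird, but by little. The native mean differed from White Leghorn by 0.21 ± 0.07 (adjusted p = 0.269) and Hwangbong by 0.29 ± 0.09 (adjusted p = 0.2), and none passed. ABCA3, the surfactant lipid transporter of lung, had narrow breed means between 7.97 and 8.22, with 8.24, 8.23 and 8.20 in Hoengseong Yakdak against 8.02, 8.02 and 8.01 in White Leghorn, a difference of 0.21 ± 0.08 (adjusted p = 0.28). ABCA5 and ABCA7 had breed means between 6.14 and 6.26 and between 6.18 and 6.39. ABCA4, the retinoid transporter of the eye, lay at 3.52 to 3.96 and ABCA13 at 2.20 to 2.58.

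The ABCB family had 5 measured members and 0 passed. ABCB1, the multidrug exporter P-glycoprotein, read 9.77, 10.18 and 9.73 in Yeonsan Ogye, 7.32, 9.02 and 8.75 in Hyunin Black, 8.80, 9.04 and 6.93 in Hwangbong and 7.28, 9.33 and 7.47 in Hoengseong Yakdak, against 8.80, 9.49 and 9.46 in White Leghorn. Yeonsan Ogye lay above all 12 other birds and had an SD of 0.25, while SDs were 0.91 in Hyunin Black, 1.15 in Hwangbong and 1.13 in Hoengseong Yakdak. Against Yeonsan Ogye the differences were -1.53 ± 0.60 in Hyunin Black (adjusted p = 0.526), -1.64 ± 0.60 in Hwangbong (adjusted p = 0.308) and -1.87 ± 0.60 in Hoengseong Yakdak (adjusted p = 0.245). Yeonsan Ogye differed from White Leghorn by less, 0.65 ± 0.60 (adjusted p = 0.837).

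ABCB1LA, a related copy beside ABCB1, read 7.85, 6.34 and 7.39 in Yeonsan Ogye, 5.89, 6.68 and 7.86 in Hyunin Black, 6.76, 7.15 and 7.01 in Hwangbong and 4.32, 5.95 and 7.34 in Hoengseong Yakdak, against 7.06, 5.29 and 5.77 in White Leghorn. The SD within Hoengseong Yakdak was 1.51, more than the range of breed means, 1.32. The probes of both copies were not checked for shared sequence. ABCB10, a mitochondrial exporter needed for haem synthesis, read 7.62, 7.74 and 7.77 in Yeonsan Ogye, 7.56, 7.83 and 7.84 in Hyunin Black, 7.53, 7.70 and 7.82 in Hwangbong and 7.76, 7.65 and 7.77 in Hoengseong Yakdak, against 7.71, 7.74 and 7.75 in White Leghorn. Its range of breed means, 0.06, was the smallest of the 55 members. ABCB9, a peptide carrier of lysosomes, had breed means between 7.16 and 7.63, and ABCB5 between 4.02 and 4.43.

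The ABCC family had 9 measured members and 0 passed. Against White Leghorn, whose birds all 4 comparisons share, 8 lay above 0 in Yeonsan Ogye, 7 in Hyunin Black, 8 in Hwangbong and 9 in Hoengseong Yakdak, where 47.6% to 49.8% of all features did. Among the 9 in Hoengseong Yakdak, ABCC3 and ABCC10 had differences of 0 to 2 decimals. ABCC2, the exporter of bilirubin and drug conjugates into bile, read 9.54, 9.96 and 9.51 in Yeonsan Ogye, 9.66, 10.05 and 9.63 in Hyunin Black, 9.63, 9.83 and 9.62 in Hwangbong and 10.28, 9.92 and 9.67 in Hoengseong Yakdak, against 9.56, 9.74 and 9.69 in White Leghorn. The breeds overlapped and the means lay within 0.29. ABCC5, an exporter of cyclic nucleotides, read 9.07, 8.78 and 8.35 in Yeonsan Ogye, 8.32, 8.57 and 8.10 in Hyunin Black, 9.22, 8.91 and 8.86 in Hwangbong and 8.89, 8.12 and 8.81 in Hoengseong Yakdak, against 9.06, 8.40 and 8.25 in White Leghorn. Hwangbong lay above Hyunin Black without overlap, by 0.66 ± 0.25 (adjusted p = 0.418).

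ABCC9, the sulfonylurea receptor subunit of potassium channels in vascular smooth muscle, read 5.17, 4.91 and 6.12 in Yeonsan Ogye, 4.96, 5.19 and 4.95 in Hyunin Black, 7.19, 5.26 and 6.98 in Hwangbong and 5.12, 5.44 and 5.80 in Hoengseong Yakdak, against 5.06, 5.26 and 4.68 in White Leghorn. Hw 1 and Hw 3 stood above all other birds, while Hw 2 lay among them. The difference of Hwangbong from White Leghorn was 1.48 ± 0.42 (adjusted p = 0.139) and did not pass, and it rested on which Hwangbong birds were in the fit, being 1.12 without Hw 1 (adjusted p = 0.321), 2.08 without Hw 2 (adjusted p = 0.0144) and 1.22 without Hw 3 (adjusted p = 0.359). The mean of 6 stellate cell and fibroblast markers was 7.86 to 8.04 in Hwangbong birds and 7.62 to 8.06 in White Leghorn birds, and their part in the values of ABCC9 was not tested. ABCC1 read 6.10, 6.12 and 6.11 in Hwangbong against 5.94, 5.75 and 5.73 in White Leghorn, 0.30 ± 0.12 (adjusted p = 0.315). ABCC13 had 7.51, 7.78 and 7.42 in Yeonsan Ogye against 7.23, 7.13 and 6.95 in White Leghorn, 0.47 ± 0.15 (adjusted p = 0.348). Breed means lay between 5.35 and 5.62 for ABCC3 and between 6.60 and 6.87 for ABCC4, both exporters to blood, between 5.55 and 5.63 for ABCC10, and between 6.09 and 6.41 for ABCC8, the sulfonylurea receptor of pancreatic beta cells.

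The ABCD family of peroxisomal and lysosomal carriers had 3 measured members and 0 passed. ABCD3, which brings branched fatty acids and bile acid precursors into peroxisomes, read 9.50, 9.19 and 9.43 in Yeonsan Ogye, 8.96, 9.19 and 9.24 in Hyunin Black, 9.37, 9.19 and 9.09 in Hwangbong and 9.02, 9.28 and 9.57 in Hoengseong Yakdak, against 8.81, 8.89 and 8.99 in White Leghorn. Of the 12 native birds, 11 lay above the highest White Leghorn bird, and Bl 1 did not. The largest difference was 0.48 ± 0.14 in Yeonsan Ogye (adjusted p = 0.279). ABCD2, for very long-chain fatty acids, read 9.27, 9.24 and 8.78 in Yeonsan Ogye, 9.17, 9.36 and 9.05 in Hyunin Black, 9.14, 9.11 and 8.88 in Hwangbong and 9.67, 9.43 and 9.23 in Hoengseong Yakdak, against 9.46, 9.64 and 9.10 in White Leghorn. Hwangbong lay below Hoengseong Yakdak, which was higher by 0.40 ± 0.17 (adjusted p = 0.318). ABCD4, of vitamin B12 release from lysosomes, had breed means between 7.11 and 7.41.

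The soluble ATPases ABCE1, ABCF2 and ABCF3 varied little, and 0 passed. ABCE1, which splits ribosomes after translation, read 8.16, 8.70 and 8.68 in Yeonsan Ogye, 8.46, 8.65 and 8.88 in Hyunin Black, 8.42, 8.61 and 8.50 in Hwangbong and 8.57, 8.58 and 8.65 in Hoengseong Yakdak, against 8.38, 8.56 and 8.58 in White Leghorn. ABCF2 read 7.03, 7.44 and 7.39 in Yeonsan Ogye, 6.99, 7.64 and 7.48 in Hyunin Black, 7.38, 7.52 and 7.30 in Hwangbong and 7.56, 7.38 and 7.30 in Hoengseong Yakdak, against 7.20, 7.38 and 7.34 in White Leghorn. ABCF3 read 7.40, 7.16 and 7.29 in Yeonsan Ogye, 7.07, 7.52 and 7.24 in Hyunin Black, 7.22, 7.45 and 7.36 in Hwangbong and 7.52, 7.25 and 7.28 in Hoengseong Yakdak, against 7.21, 7.12 and 7.09 in White Leghorn. Breeds overlapped in ABCE1 and ABCF2, and in ABCF3 Hwangbong and Hoengseong Yakdak lay just above White Leghorn. Their breed means ranged over 0.16, 0.13 and 0.21.

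Of the listed regulators, anchors and other carriers, 0 passed. The F test called 1.6% of all features, and single comparisons called 0.0492% to 1.46%. At such shares, 0 in lists this short is not a result about these genes. Of 15 measured regulators, such as the bile acid receptor NR1H4, the oxysterol receptor NR1H3, which drives ABCA1, ABCG1, ABCG5 and ABCG8 in mammals, and the drug receptor NR1I3, 0 passed the F test or any of 11 comparisons. The breed means of NR1H3 lay between 9.92 and 10.08, those of NR1H4 between 10.39 and 10.65 and those of NR1I3 between 7.10 and 7.35. In each comparison 0 to 2 regulators had an unadjusted p under 0.05, where 8.05% to 13.2% of all features did. Of 12 proteins that anchor or sort carriers, 0 passed, and 0 to 3 had an unadjusted p under 0.05. RDX, which ties canalicular carriers to actin, had breed means between 10.45 and 10.82. Of 21 other carriers of organic ions, nucleosides, vitamins and drugs, 0 passed, and 0 to 4 had an unadjusted p under 0.05 in a comparison. Of these 21, 18 lay below 0 and 3 above in Hwangbong against Yeonsan Ogye. Against Hyunin Black, 17 lay below 0 and 4 above in Hwangbong. In Hoengseong Yakdak against Hwangbong, 16 lay above 0 and 5 below. These comparisons share the Hwangbong birds, and the tilts were not tested. The nucleoside carrier SLC28A2 was at 6.25 in Hwangbong against 6.70 in White Leghorn, a difference of -0.46 ± 0.12 (adjusted p = 0.102).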

How the data were processed

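The deposited table holds log2 expression values that the authors made by RMA; the submitters' processing notes name version 1.3.1 of Affymetrix Expression Console. RMA draws arrays to 1 common distribution, so a shift shared by most genes would be removed. The summarization level and probe filter are not given in the sources used here. Symbols came from the platform annotation. No sequence or genome was used, so probe positions and breed variants under probes were not checked. In R 4.3.3, limma 3.58.1 fitted the breed means to the 15 arrays by lmFit and eBayes, with 10 residual and 3.89 prior degrees of freedom. Comparisons were each native breed and their mean against White Leghorn, 6 native pairs and an F test, two-sided, adjusted by Benjamini-Hochberg over 18308 features with a threshold of 0.05. The number of arrays limits precision: with 3 birds a side, the smallest p of an exact permutation test is 0.1. The labels call the arrays of a breed biological replicates and give no batch. The fit was tested on simulated data.

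Members and lists were chosen with earlier results of these data known. Genes named with every bird's value are those that passed and, per family, the 2 with the largest range of breed means and the 2 with the highest mean; other genes, among them ABCA9, ABCG1 and all marker genes, were named for their role or after their values were seen. The test of neighbouring genes was chosen after seeing the data. Correlations used scipy 1.17.1. Alternatives were trended robust variances, array weights, quantile normalization, median centring, a filter on low means, 1 feature per gene, the mean over a gene's features, a replicate block, only the arrays compared, and each array left out.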

Additional observations from a re-analysis of the deposited data

Results flagged for a closer look

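For 2 members the difference from White Leghorn was not the same in a pair of native breeds, by the test of the difference itself. SLC22A15 was higher in Hoengseong Yakdak than in Hwangbong by 1.76, with 1.23 ± 0.23 in Hoengseong Yakdak and -0.53 ± 0.23 in Hwangbong against White Leghorn. The difference of Hwangbong from White Leghorn did not pass (adjusted p = 0.36). All Hoengseong Yakdak birds lay above the White Leghorn birds (9.02% of features). All Hwangbong birds lay below them (9.42% of features), but Hw 2, at 6.19, only just below WL 1 and WL 2 at 6.20. Between Hwangbong and Hyunin Black SLC22A15 differed by -1.29, with 0.77 ± 0.23 in Hyunin Black against White Leghorn. ABCG5 differed by -1.97 between Hoengseong Yakdak and Hwangbong, with -1.35 ± 0.36 and 0.62 ± 0.36 against White Leghorn.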

How the results depend on the processing

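The number of members differing among breeds was 1, and 2 with array weights, with 1 feature per named gene or with the replicate block, and 3 when 1 in 3 features, those lowest in mean, were left out; leaving out 1 array gave 1 to 3. In Hwangbong against White Leghorn the 1 call, ABCA12, became 0 with trended robust variances (adjusted p = 0.0657), quantile normalization (adjusted p = 0.0514) or only the 6 arrays compared (adjusted p = 0.139), and 2 with array weights; leaving out 1 array gave 0 to 1, where the call without Hw 2 was ABCC9. In Hoengseong Yakdak against White Leghorn the 1 call, SLC22A15, became 0 with the replicate block (adjusted p = 0.0505) or only the arrays compared (adjusted p = 0.103), and 2, with ABCA9 added, under array weights, quantile normalization or the filter on low means; leaving out 1 array gave 0 to 1. The native mean gave 0, and 1 (ABCA12) with the replicate block. In native pairs 2 members passed, and 1 to 3 did with 1 array left out. The causes of these changes were not tested. Leaving out arrays also makes the samples smaller, and leaving out features makes the features tested fewer. Yeonsan Ogye and Hyunin Black against White Leghorn gave 0 in all 24 alternatives each. The shares of all features called in the alternatives are not given here, so these counts are not a result about the members. Of 25 named differences that did not pass, 5 of 598 alternative values reversed: ABCB10 in Hwangbong (0.03 without Hw 1), SLC10A7 in Hoengseong Yakdak (-0.05 with array weights, -0.35 without WL 1, up to 0.50 without WL 3) and SLC22A5 in Yeonsan Ogye (-0.10 without WL 3, -0.12 without Og 1, up to 0.45 without WL 1), all against White Leghorn. Same-numbered birds of different breeds had deviations correlating between -0.0859 and 0.239 (median 0.0388), against -0.231 to 0.158 (median -0.0151) for other numbers; as not every pair was over 0.1 and no label ties the numbers, they were not taken to pair birds. Within every breed the bird numbered 3 had the lowest ABCA12 value, and the bird numbered 1 had the highest in each breed but Hwangbong. The labels do not tell whether same-numbered birds share a batch. With the replicate block the adjusted p of ABCA12 in Hwangbong against White Leghorn was 0.00331, and the difference of SLC22A15 between Hwangbong and Hyunin Black was also lost (adjusted p = 0.0595). Members with low signal are limited by an unmeasured background.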
